A study of Mus musculus with 16 samples.

Results

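The 40 genes described here, of the extracellular matrix and its remodelling, were followed in HL-1 cells, a line of atrial heart muscle cells from a female mouse that beats in culture. The 40 genes were chosen by name, with earlier results of these data known. A gene was represented by the probe with the highest mean signal among the non-control probes whose RefSeq accession belonged to it, and 39 of the 40 had such a probe. Lamc1 was the 1 without, so it is named only. In all 31758 genes had a probe. That number counts each accession without a gene symbol as a gene, and 19096 of the genes had a symbol. The cells had been kept for 6 h with 100 nM dexamethasone plus 10 nM estradiol (Dex+E2), with 100 nM dexamethasone alone (Dex), with 10 nM estradiol alone (E2) or with PBS (vehicle), and RNA from 4 samples of each label was hybridised to 16 single-colour Agilent arrays on 4 slides of 4. The design text speaks of independent experiments, and all labels share the same line and medium. Dexamethasone is a synthetic agonist of the glucocorticoid receptor and estradiol an agonist of the estrogen receptors. A level is log2 of the processed spot signal minus the 75th percentile of its array, so levels of different genes, which rest on different probes, are not set against each other.

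The matrix around heart muscle cells is built from fibrillar collagens, which carry tension, and from a basement membrane of type IV collagen, laminins, nidogens and perlecan that wraps each myocyte. Matricellular proteins such as SPARC and osteopontin tune how cells attach, lysyl oxidases cross-link the fibres, and metalloproteinases with their inhibitors, the TIMPs, control turnover. In the intact heart fibroblasts make most of the fibrillar matrix, while myocytes contribute basement membrane components.

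Before the results, 4 arrays went against their label. Per1, a clock gene that glucocorticoids induce, had a level of 1.75 to 1.99 on 8 arrays and of -1.29 to -0.75 on the other 8. The Per1-high arrays were Dex+E2 1, 2 and 4, Dex 1, 2 and 4, E2 4 and Vehicle 4. Dex+E2 3 and Dex 3 were thus Per1-low although their label names dexamethasone, and E2 4 and Vehicle 4 were Per1-high although theirs does not. The labels were kept for every test, and the division by Per1 is given as a description without a p-value, because it sorts arrays by a measured level. Whether labels were exchanged between arrays was not tested, and the counts by label hold for the labels as deposited. The 75th percentile lay between 402 and 557 intensity units and each array had 58.6% to 65.6% of its probes well above background. Of the cell type markers that are not among the 40 genes, 11 of 12 cardiomyocyte markers were above background on all 16 arrays, as were the fibroblast markers Pdgfra and Ddr2 and the smooth muscle genes Acta2, Tagln, Cnn1 and Myh11. In the same list of smooth muscle and pericyte markers, Cspg4 was above background on 8 arrays and Rgs5 on 0. Pecam1, Cdh5 and Tie1 of the endothelium and Ptprc, Adgre1 and Lyz2 of macrophages were above background on 0 arrays. Of the other endothelial markers, Kdr was above background on 16 arrays, Tek on 2 and Emcn on 1. Other macrophage markers were detected, with Cd68 above background on 16 arrays, Cd14 on 11 and Csf1r on 9, while of the fibroblast markers Tcf21 was on 10 arrays, Fap on 7, Meox1 on 2 and Thy1 on 1.

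Of the 39 matrix genes with a probe, 28 were well above background on all 16 arrays (71.8%, against 50.2% of all genes with a probe). The second share includes accessions without a gene symbol, so the 2 sets are not alike. The 28 were 4 of 5 fibrillar collagens, 6 of 7 basement membrane and network collagens, 6 of the 7 measured basement membrane glycoproteins, 2 of 5 elastic fibre and cross-linking genes, 4 of 6 adhesive and matricellular glycoproteins, 2 of 4 proteoglycans and 4 of 5 proteinases and inhibitors. Col5a1, which encodes a chain of the collagen that starts fibril assembly, was above background on 8 arrays, and Loxl1, a lysyl oxidase, on 3. Col15a1, Fbn1, Lox, Postn, Tnc, Vcan and Mmp2 were above background on 1 array each, and Nid1 and Lum on 0. These 11 genes were not tested. The 28 tested genes varied over the 16 arrays by a median range of 0.75, against 0.66 over all 17771 genes tested.

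The dim genes had isolated high values. Tnc, which encodes tenascin C, had a level of -8.01, -7.91, -8.44 and -8.63 on the Dex+E2 arrays, -8.18, -7.19, -7.84 and -8.20 on the Dex arrays, -8.40, -8.01, -8.47 and -8.83 on the E2 arrays and -8.34, -2.40, -8.54 and -8.38 on the vehicle arrays. Only Vehicle 2 stood out, and the other Tnc probe was above background on no array, with a level of -8.57 on Vehicle 2. Vcan, the large proteoglycan versican, reached -4.54 on Vehicle 1 and lay between -8.41 and -6.84 on the other 15 arrays. The other 3 Vcan probes were each above background on 1 array, which was Vehicle 3, Vehicle 4 or E2 4. Fbn1, the microfibril protein fibrillin 1, reached -4.73 on Vehicle 2 and lay at -6.20 or below elsewhere. Its other probe was at -7.97 on Vehicle 2 and above background on 3 other arrays, at -4.65 on Dex+E2 2, -5.91 on Dex+E2 3 and -6.0 on E2 3. Mmp2, a gelatinase, reached -5.26 on E2 3 and lay at -6.92 or below elsewhere. Col15a1 reached -5.12 on Dex 3, against -5.93 or below elsewhere, and Nid1, nidogen 1, had its highest level, -6.34, on the same array without being well above background. Postn, the matricellular protein periostin, was above background on Dex+E2 1 alone, at -5.31. Lox, a lysyl oxidase, was above background on Vehicle 2 alone, at -6.07. These single high values thus lay on arrays of all 4 labels, with those of Tnc, Fbn1 and Lox on the same array, Vehicle 2.

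Across the labels, no matrix gene passed the test. limma called 0 of the 28 genes in each of the 6 comparisons, against 0.0% of all 17771 genes (0 genes in each). At an unadjusted p under 0.05 the limma fit had 3 matrix genes for Dex against vehicle and 0 for the other comparisons, while over all genes it had 989 for Dex+E2, 682 for E2 and 1933 for Dex, all 3 against vehicle, 567 and 714 for Dex+E2 against each agent alone (Dex, then E2), and 661 for the interaction. The median difference of the 28 genes was -0.05 for Dex+E2 against vehicle, -0.04 for Dex against vehicle and 0.02 for E2 against vehicle, beside -0.02, -0.03 and -0.02 over all genes. It was 0.01 for Dex+E2 against Dex, -0.04 for Dex+E2 against E2 and -0.01 for the interaction, beside 0.01, -0.002 and 0.03. These comparisons share arrays. Single differences ranged from -0.56 to 0.38 against vehicle, as the plot of label differences shows. The lowest, Lama4 for a laminin alpha chain with Dex, rested on Dex 3, and without that array it was -0.07. Over the mean of the Lama4 probes it was -0.17.

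**Figure D1:**
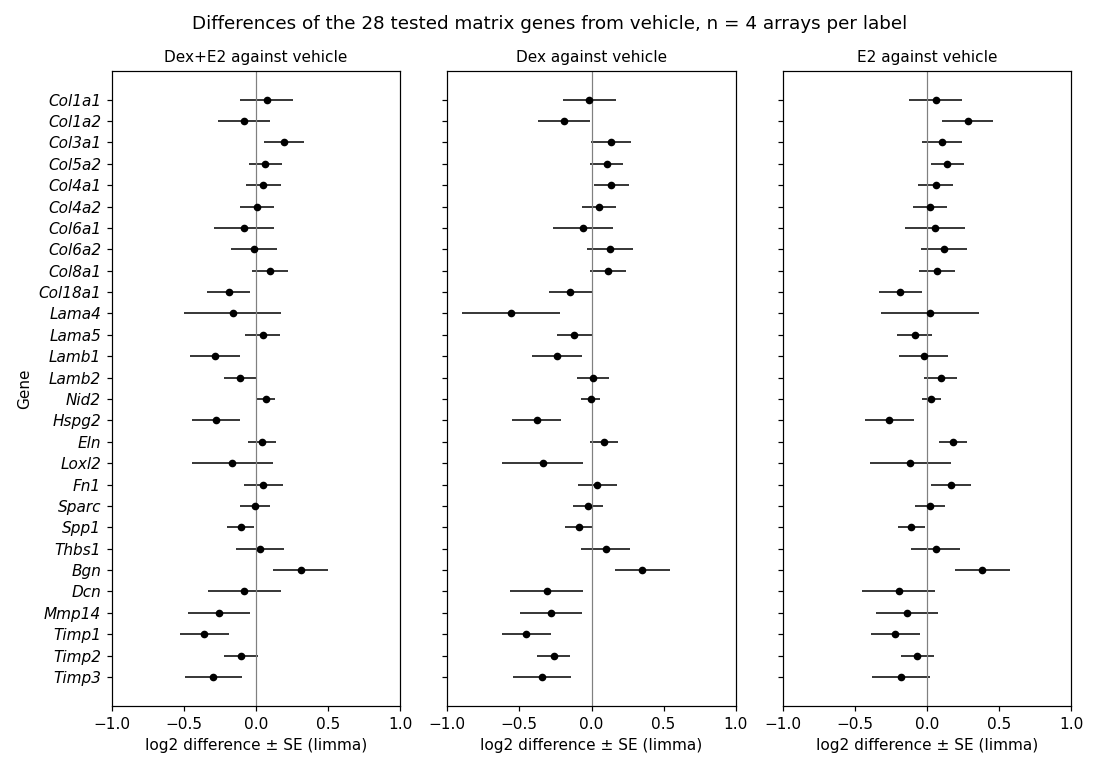
Differences of the 28 tested matrix genes from vehicle in 3 panels, Dex+E2, Dex and E2 from left to right (x axis: log2 difference, points with SE from limma, n = 4 arrays per label; y axis: genes by role). Values scatter on both sides of 0, with 12, 11 and 17 of 28 above it, and none passed the test.

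Several of these medians moved when slide entered the fit as a fixed block, and moved less with slide as a random block. With slide as a fixed block the median of the 28 genes was 0.23 for E2 against vehicle, 0.23 for Dex+E2 against vehicle and 0.21 for Dex+E2 against Dex, with 23, 20 and 25 of 28 genes positive and 0 called, beside medians of 0.002, -0.03 and 0.04 over all genes. At an unadjusted p under 0.05 that fit had 12, 10 and 9 of the 28 genes and 1438, 980 and 2098 of all 17771. With slide as a random block the medians of the 28 genes were 0.04, 0.05 and 0.04 in the same order, with 0 called. Within the 1 slide that each pair of labels shared, the median of the 28 genes was -0.07 for Dex against vehicle, 0.32 for E2 against vehicle, 0.20 for Dex+E2 against Dex and 0.03 for Dex+E2 against E2. Each of these fits had 2 arrays per label. No matrix gene was called there by limma, while 45 of all genes (0.253%) were called for Dex against vehicle and 0 for the other 3. The slide of Dex and vehicle, slide 1, held no array with Per1 against its label. Such arrays lay on the other slides, Vehicle 4 on slide 2, Dex 3 on slide 3, and E2 4 and Dex+E2 3 on slide 4. On the slides that held E2 with vehicle and Dex+E2 with Dex, the first label had its arrays numbered 1 and 2 and the second its arrays numbered 3 and 4, so label and number cannot be told apart there.

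Among the proteinase inhibitors, Timp1 had the smallest p. Timp1 blocks most metalloproteinases, and its level was -3.04, -2.98, -3.28 and -3.08 on the Dex arrays, against -2.70, -2.40, -2.39 and -3.07 on the vehicle arrays. The groups overlapped through Vehicle 4, and the difference was -0.45 ± 0.17 (SE, limma adjusted p = 0.451). Dex+E2 arrays had -2.53, -2.96, -3.17 and -3.33, which is -0.36 ± 0.17 from vehicle (limma adjusted p = 0.715) and 0.51 with the planned normexp background correction, and E2 arrays had -2.75, -2.88, -2.92 and -2.91. The second Timp1 probe was dimmer, above background on 7 arrays. Timp2, which also takes part in activating pro-MMP2, had 3.34, 3.22, 3.25 and 2.99 on the Dex arrays and 3.69, 3.58, 3.33 and 3.26 on the vehicle arrays, a difference of -0.26 ± 0.12 (SE, limma adjusted p = 0.451) with overlap. On the Dex+E2 arrays it was 3.26, 3.33, 3.52 and 3.33, or 0.16 ± 0.12 above Dex (limma adjusted p = 1.0), and the difference was -0.14 with planned normexp.

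Of the basement membrane glycoproteins, Hspg2, which encodes perlecan, had 4.98, 5.11, 4.98 and 4.63 on the Dex arrays and 5.36, 5.61, 5.41 and 4.85 on the vehicle arrays. The difference was -0.38 ± 0.17 (SE, limma adjusted p = 0.451), and Vehicle 4 again lay among the Dex values. Its Dex+E2 levels of 5.33, 5.0, 5.20 and 4.58 overlapped with vehicle as well. Lama5, a laminin alpha chain, had 3.03, 2.66, 2.61 and 2.54 with Dex+E2 and 2.65, 2.60, 2.41 and 2.50 with Dex, and Lamb2, a laminin beta chain, had 2.45, 2.10, 2.44 and 2.36 with Dex+E2 and 2.80, 2.59, 2.33 and 2.44 with E2. Both pairs overlapped (limma adjusted p = 1.0 each). Nid2, the second nidogen, varied least of the 28, by 0.27 over all 16 arrays.

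Bgn, which encodes the small proteoglycan biglycan, was the only tested matrix gene whose arrays did not overlap in any of the 5 comparisons between labels. It had -3.54, -3.51, -3.94 and -3.93 on the E2 arrays and -3.97, -4.39, -4.12 and -3.98 on the vehicle arrays. The difference was 0.38 ± 0.19 (SE, limma adjusted p = 0.979), and the gap between the groups was small beside their ranges. That is 1 of 28 genes for E2 against vehicle, where 2.25% of all genes did not overlap. For Dex+E2 the count was 0 of 28 genes against vehicle, against Dex and against E2, where 1.85%, 3.1% and 2.9% of all genes did not overlap, and for Dex against vehicle it was 0 of 28, where 4.64% did not. Bgn had -3.75, -3.28, -4.33 and -3.86 on the Dex+E2 arrays and -3.69, -3.66, -3.98 and -3.71 on the Dex arrays, and its interaction was -0.43 ± 0.27 (SE, limma adjusted p = 0.999), or -0.25 without Dex+E2 3. Eln, the gene for elastin, had -1.58, -1.35, -1.80 and -1.71 with E2 and -1.62, -1.72, -1.88 and -1.94 with vehicle, overlapping, at 0.18 ± 0.10 (SE, limma adjusted p = 0.979). It had -1.79, -1.71, -1.74 and -1.74 with Dex+E2 and -1.68, -1.65, -1.73 and -1.75 with Dex. The interaction for Eln was -0.22 ± 0.14 (SE, limma adjusted p = 0.999).

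Of the fibrillar collagens, Col1a2 varied most. It had -3.58, -3.64, -4.15 and -4.03 on the Dex+E2 arrays and -3.30, -3.72, -3.36 and -3.57 on the E2 arrays, a difference of -0.36 ± 0.18 (SE, limma adjusted p = 1.0) with overlap. On the Dex arrays Col1a2 had -3.82, -3.80, -3.96 and -4.25, and on the vehicle arrays -3.67, -4.20, -3.48 and -3.72. Its partner Col1a1, whose chain joins that of Col1a2 in type I collagen, averaged 5.10 ± 0.28 on the Dex+E2 arrays, 5.01 ± 0.31 on the Dex arrays, 5.09 ± 0.26 on the E2 arrays and 5.03 ± 0.29 on the vehicle arrays (SD, n = 4 each). Col5a2, Fn1 for fibronectin, Spp1 for osteopontin and Thbs1 for thrombospondin 1 overlapped between all labels compared, as did Col8a1 and Col18a1.

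**Figure D2:**
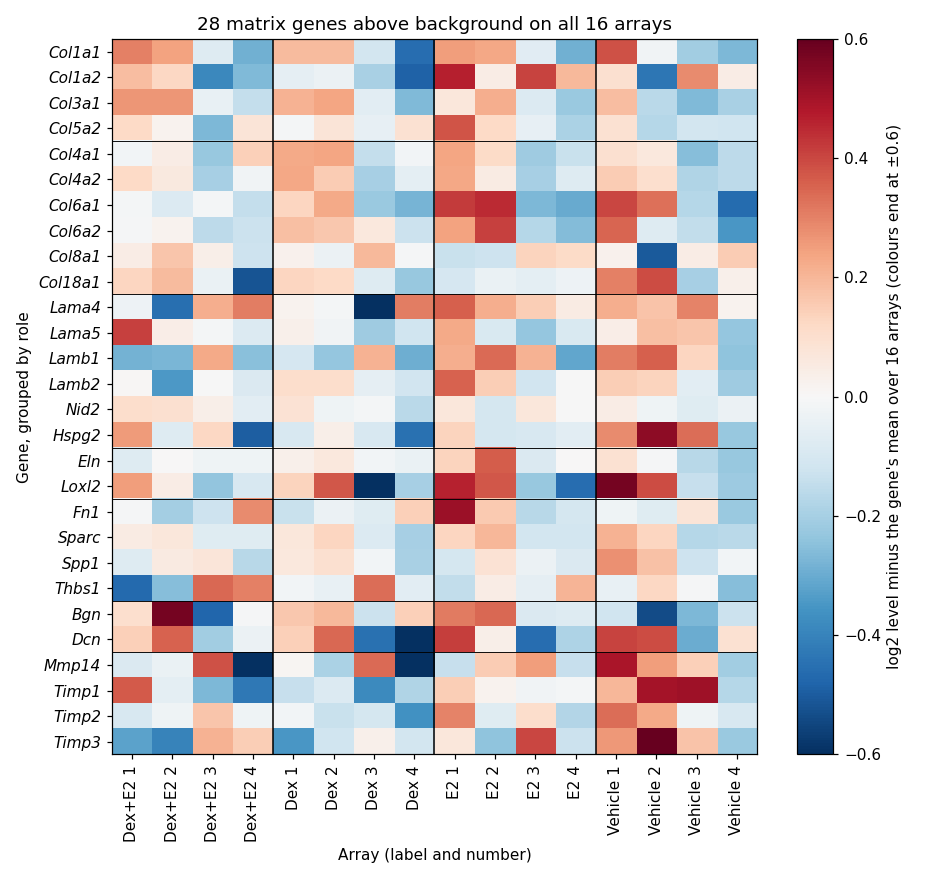
Levels of the 28 tested matrix genes on the 16 arrays, each minus the gene's mean (colour, log2, ending at ±0.6), with genes by role down the page and arrays by label from Dex+E2 on the left to vehicle on the right. Most rows are redder on arrays 1 and 2 than on arrays 3 and 4 of the same label, and the Lamb1 row follows Per1.

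Divided by Per1 in place of the label, 1 matrix gene separated the arrays. Lamb1 encodes the laminin beta 1 chain, a part of the basement membrane laminins. Its level was -1.07, -1.06 and -1.04 on Dex+E2 1, 2 and 4, -0.89, -1.02 and -1.08 on Dex 1, 2 and 4, -1.10 on E2 4 and -1.03 on Vehicle 4, all Per1-high. On the Per1-low arrays it was -0.56 on Dex+E2 3, -0.58 on Dex 3, -0.57, -0.45 and -0.58 on E2 1, 2 and 3, and -0.48, -0.43 and -0.66 on Vehicle 1, 2 and 3. The medians differed by -0.49 and the groups did not overlap. The difference was -0.49, -0.47, -0.49 and -0.50 within slides 1, 2, 3 and 4, and -0.50, -0.42, -0.57 and -0.51 within the Dex+E2, Dex, E2 and vehicle labels. By label, where both kinds of array are mixed, it was -0.28 ± 0.17 for Dex+E2 and -0.24 ± 0.17 for Dex against vehicle (SE, limma adjusted p = 0.715 and 0.604). Lamb1 was 1 of 28 genes without overlap, and it was lower on the Per1-high arrays. Over all genes 4.09% did not overlap, 2.02% higher and 2.07% lower on Per1-high arrays, so the matrix genes' share of 1 in 28 is near that of all genes. With normexp background correction in its planned form the Lamb1 arrays overlapped, and with the version added after that result was seen they did not.

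The promoter window of Lamb1, 250 bases before to 50 after the start at chr12:31265043-31265342 on the plus strand (RefSeq, GRCm38.p6), is shown because Lamb1 followed Per1. That of Mmp14 at chr14:54431348-54431647, plus strand, is shown beside it because 1 of its probes did too. The gene span of Lamb1 in RefSeq begins at 31265146, which lies before the start used for its window. Capitals mark matches, on either strand, to 5 motifs: the GC box GGGCGG, the CCAAT box CCAAT, the TATA box TATAAA, the AP-1 element TGANTCA and the glucocorticoid half-site AGAACA.
Lamb1: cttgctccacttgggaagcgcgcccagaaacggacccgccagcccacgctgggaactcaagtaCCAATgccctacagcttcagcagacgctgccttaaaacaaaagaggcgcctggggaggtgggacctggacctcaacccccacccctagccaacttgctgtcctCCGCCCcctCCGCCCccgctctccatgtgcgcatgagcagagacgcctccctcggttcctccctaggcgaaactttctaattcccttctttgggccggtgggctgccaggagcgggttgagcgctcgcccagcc
Mmp14: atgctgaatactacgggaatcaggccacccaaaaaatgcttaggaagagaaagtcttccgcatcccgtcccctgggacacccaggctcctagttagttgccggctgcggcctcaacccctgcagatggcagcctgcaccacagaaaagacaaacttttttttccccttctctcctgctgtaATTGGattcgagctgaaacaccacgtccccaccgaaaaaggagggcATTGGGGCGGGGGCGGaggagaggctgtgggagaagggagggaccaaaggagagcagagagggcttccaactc
Lamb1 held 2 GC boxes and 1 CCAAT box, and Mmp14 held 2 GC boxes and 2 CCAAT boxes, of which 1 overlaps a GC box. Neither window held the letters of the other 3 motifs. Of all 32851 windows 35.7% held a GC box, 37.4% a CCAAT box, 13.6% a TATA box, 7.8% an AP-1 element and 19.0% a glucocorticoid half-site. Windows were found for 26 of the 40 genes, with 31 windows, of which 21 held a GC box, 12 a CCAAT box, 5 a TATA box, 1 an AP-1 element and 2 a glucocorticoid half-site.

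Mmp14, a membrane-anchored metalloproteinase that cuts collagen and activates pro-MMP2, came next. The probe used had 2.14, 2.19 and 1.63 on Dex+E2 1, 2 and 4, 2.24, 2.04 and 1.61 on Dex 1, 2 and 4, 2.09 on E2 4 and 2.02 on Vehicle 4. On the Per1-low arrays it had 2.61 on Dex+E2 3, 2.57 on Dex 3, 2.09, 2.38 and 2.48 on E2 1, 2 and 3, and 2.72, 2.48 and 2.37 on Vehicle 1, 2 and 3. The groups overlapped through E2 1, and the medians differed by -0.42. The second Mmp14 probe did not overlap, with -2.52 to -2.14 on Per1-high and -2.08 to -1.80 on Per1-low arrays and medians that differed by -0.47. Timp3, a matrix-bound inhibitor, had -4.66 to -4.11 on Per1-high and -4.50 to -3.65 on Per1-low arrays, with medians that differed by -0.36. Timp2 ranged from 2.99 to 3.34 and from 3.25 to 3.69 on the same groups, and Timp1 from -3.33 to -2.53 and from -3.28 to -2.39. Over the 28 genes 9 had the higher median on Per1-high arrays, beside 8128 of all 17771 genes, and the median difference was -0.06, beside -0.01 over all genes.

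**Figure D3:**
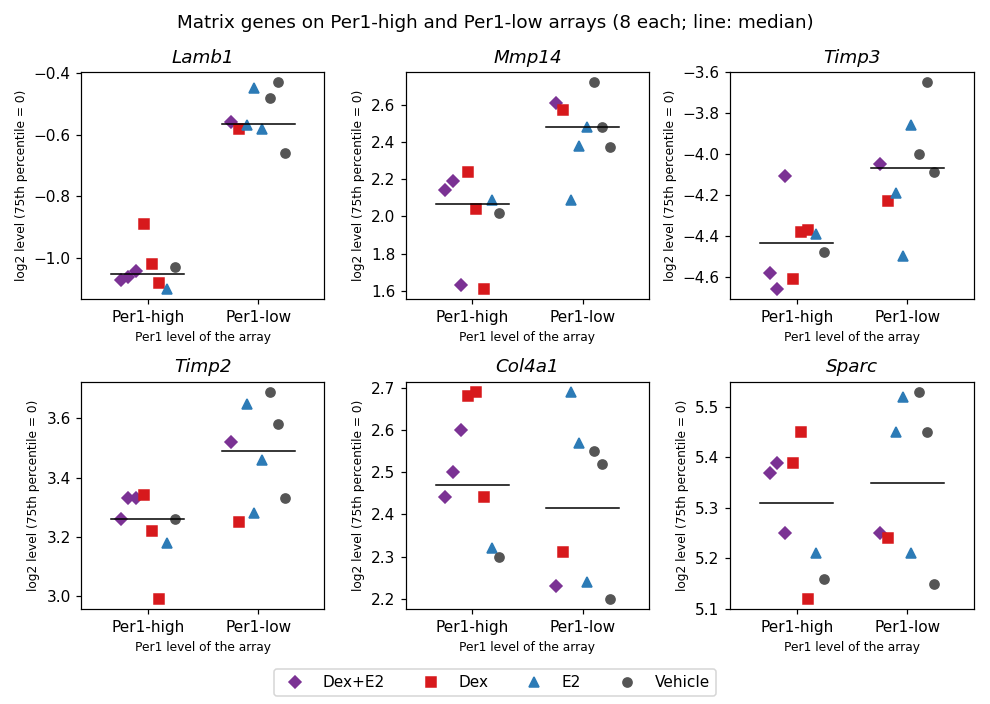
Levels of 6 matrix genes (y axis, log2 with the 75th percentile at 0, scales differ) on 8 Per1-high arrays at the left and 8 Per1-low arrays at the right of each panel, with symbols for the labels and a line at the median. Lamb1 separates the groups, the used Mmp14 probe, Timp3 and Timp2 overlap with lower medians on the left, and Col4a1 and Sparc overlap throughout.

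The wider matrix lists, 88 further genes of which 72 were tested, held larger differences by Per1. Like the 40 genes, these lists were drawn up with earlier results of the data known. Of the 72, 9 did not overlap, 4 higher and 5 lower on Per1-high arrays, beside 4.09% of all genes. limma called 0 of the 72 by label in each comparison, with 5 at an unadjusted p under 0.05 for Dex+E2, 3 for Dex and 2 for E2 against vehicle, 1 for Dex+E2 against Dex, 2 for Dex+E2 against E2 and 3 for the interaction. Adamts1, a secreted proteinase that cleaves versican and aggrecan, had 1.41 to 1.88 on Per1-high and -1.05 to -0.38 on Per1-low arrays, a difference of medians of 2.28. Agt, which encodes angiotensinogen, had -3.52 to -2.94 on Per1-high and -4.77 to -4.15 on Per1-low arrays, and Sdc4, the cell surface proteoglycan syndecan 4, had -1.20 to -0.74 and -1.78 to -1.30. Lama3, a laminin alpha chain, was lower, at -4.90 to -4.56 on Per1-high and -4.20 to -3.55 on Per1-low arrays. Edn1 for endothelin 1, Pdgfa for a platelet-derived growth factor chain, Mmp11 for stromelysin 3 and the aggrecanase gene Adamts4 were also lower, by 0.48 to 0.61 between medians. The ninth was Reck, a membrane-anchored inhibitor of metalloproteinases, which was higher by 0.33.

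**Figure D4:**
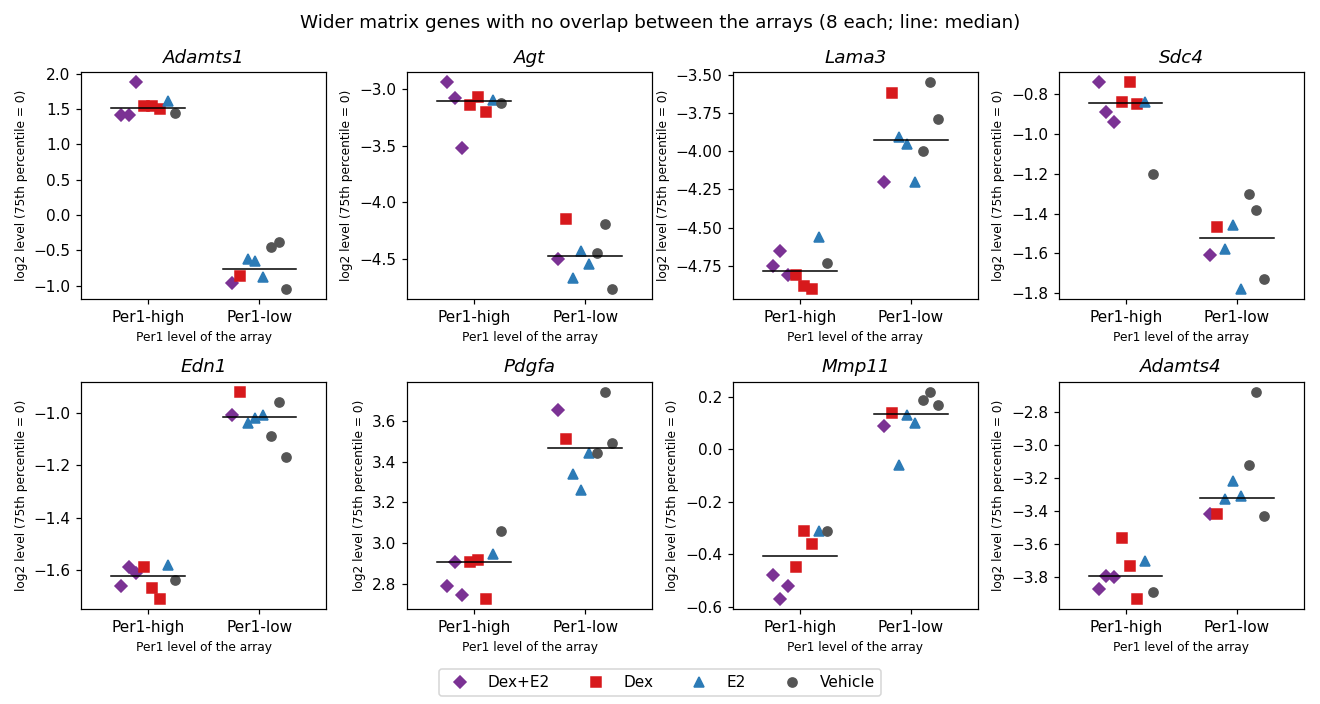
Levels of the 8 wider matrix genes with the largest differences of medians (y axis, log2 with the 75th percentile at 0, scales differ) on Per1-high arrays at the left and Per1-low arrays at the right, with a line at the median. Adamts1 differs most, by 2.28, and Agt and Sdc4 are higher with the other 5 lower on Per1-high arrays.

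Among cell type markers the summed linear level of the endothelial list was 1.79 to 2.30 on Per1-high and 1.05 to 1.61 on Per1-low arrays. Its 1 gene above background on all arrays, Kdr, a receptor for vascular endothelial growth factor, made up most of that sum. Kdr had levels of 0.81 to 1.16 and 0.05 to 0.67, while Pecam1, Cdh5 and Tie1 were not above background on any array. The fibroblast list without matrix genes summed to 9.29 to 10.7 and 10.2 to 14.0 on the same groups, with 2 of 6 genes above background on all arrays. Ddr2, a collagen receptor that is also in the wider lists, made up most of that sum, with levels of 3.2 to 3.4 and 3.34 to 3.79, while Pdgfra had medians that differed by 0.04. The sums of the remaining lists overlapped between Per1-high and Per1-low arrays. They were 702 to 838 and 656 to 850 for cardiomyocytes, and 384 to 466 and 402 to 467 for smooth muscle and pericytes. For macrophages they were 0.0818 to 0.119 and 0.0979 to 0.16. The part of other cells in the Per1 differences was not tested.

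With the 4 arrays that went against their label left out, limma called 432 genes for Dex against vehicle (2.43%), 460 for Dex+E2 against vehicle (2.59%) and 343 for Dex+E2 against E2 (1.93%), and 0 in the other comparisons. Lamb1 was the 1 of the 28 tested matrix genes called in each of these 3, lower by a log2 difference of -0.47, -0.53 and -0.52. Of the 72 wider genes tested, limma called 3 higher and 6 lower for Dex against vehicle. For Dex+E2 it called 4 and 6 against vehicle, and 3 and 5 against E2. Adamts1, Agt, Sdc4, Lama3, Edn1, Pdgfa and Mmp11 were called in all 3 comparisons. Ddr2 was called for Dex and Reck for Dex+E2 against vehicle, and the proteinase gene Mmp23 for both. Itga3, a matrix receptor gene, was called for Dex+E2 against vehicle and against E2. Since the arrays were left out for their Per1 level, these calls are conditional on that choice and do not stand for the labels as deposited.

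A further division was seen in the levels and not chosen beforehand. In every label, several matrix genes were higher on arrays numbered 1 and 2 than on arrays numbered 3 and 4. Sparc, which encodes a collagen-binding matricellular protein, had 5.37 and 5.39 on Dex+E2 1 and 2, 5.39 and 5.45 on Dex 1 and 2, 5.45 and 5.52 on E2 1 and 2 and 5.53 and 5.45 on Vehicle 1 and 2. On arrays numbered 3 and 4 it had 5.25 and 5.25 with Dex+E2, 5.24 and 5.12 with Dex, 5.21 and 5.21 with E2 and 5.15 and 5.16 with vehicle. The groups did not overlap, and the difference was 0.14 to 0.34 in the 4 labels. Col1a1 had 5.04 to 5.44 on arrays 1 and 2 and 4.60 to 4.99 on arrays 3 and 4. Col4a2, a chain of the basement membrane collagen, had 2.22 to 2.40 and 1.97 to 2.15, and Loxl2, a lysyl oxidase, had 1.45 to 1.98 and 0.37 to 1.31.

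These 4 of 28 genes were all higher on arrays 1 and 2, beside 1.62% of all genes without overlap, 1.04% higher and 0.585% lower. They were noticed before they were counted, so the share is a description. The count was 2 with quantile normalization, with the deposited table or with the mean over probes, and the planned normexp setting gave 1 gene, Col6a1, and none of these 4. Other probes overlapped between the numbers: the second Sparc probe had 4.79 to 5.43 and 4.48 to 4.93, the second Loxl2 probe -2.51 to -1.88 and -3.04 to -2.32, and both other Col1a1 probes overlapped too. The second Col4a2 probe met at 1 value, with 0.49 to 0.79 and 0.17 to 0.49. Dcn, the gene for decorin, had -4.80 to -4.42 and -5.52 to -4.74, with medians that differed by 0.60. Col3a1 and Col6a1 differed by 0.38 and 0.52 between medians, and 23 of the 28 genes had the higher median on arrays 1 and 2. The median of these differences was 0.17 over the 28 genes and 0.02 over all genes. The 75th percentile was 402 to 499 on arrays 1 and 2 and 418 to 557 on arrays 3 and 4, and the cardiomyocyte markers summed to 788 to 850 and 656 to 824 on the linear scale. The part of either in the difference was not tested. In each label the 2 pairs of numbers lay on different slides, so number and slide cannot be told apart within a label. Slides 2 and 3 held both pairs, each from a different label. Arrays 1 and 2 were higher there by 0.33 and 0.20 for Sparc and 0.48 and 0.56 for Col1a1. The differences were 0.31 and 0.22 for Col4a2 and 0.59 and 0.77 for Loxl2. Within these slides number and label cannot be told apart.

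**Figure D5:**
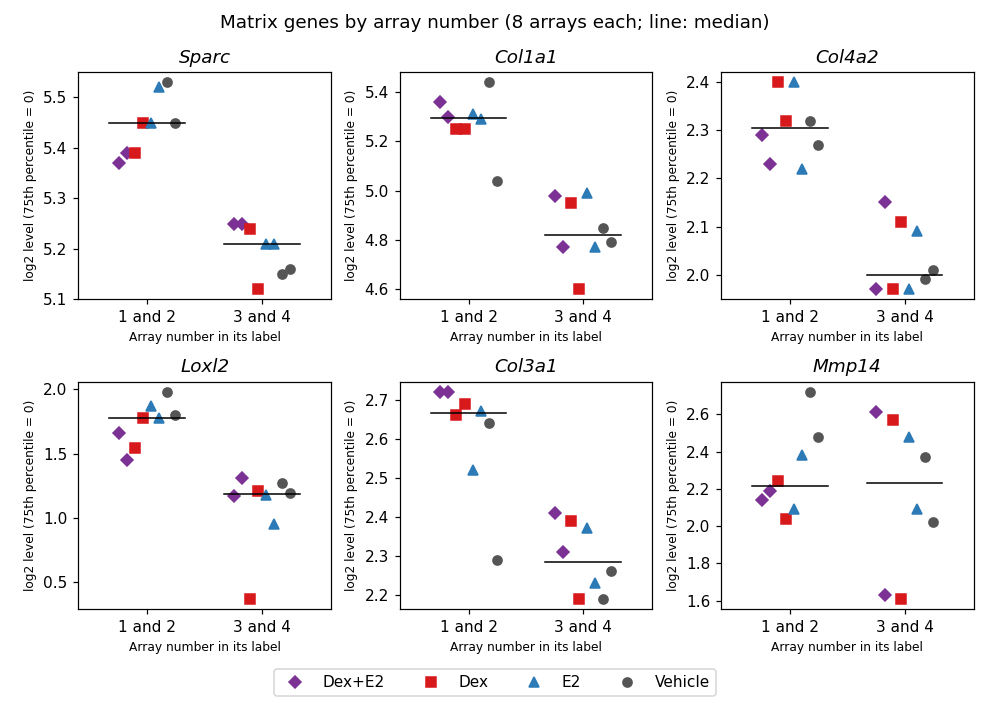
Levels of 6 matrix genes (y axis, log2 with the 75th percentile at 0, scales differ) on the 8 arrays numbered 1 and 2 at the left and the 8 numbered 3 and 4 at the right, with symbols for the labels and a line at the median. Sparc, Col1a1, Col4a2 and Loxl2 do not overlap, Col3a1 does in part, and Mmp14 does throughout.

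Col4a1 and Col4a2 encode the 2 chains of the common type IV collagen and lie head to head. The starts used for their windows are 21 bases apart, in such a way that the first bases of the 2 genes overlap. The windows, chr8:11312777-11313076 on the minus strand and chr8:11312555-11312854 on the plus strand (GRCm38.p6), share 78 bases. The gene span of Col4a1 in RefSeq reaches further upstream than the start used, to 11312889. Both windows are shown, with the same motifs in capitals, because the levels of both genes were higher on arrays 1 and 2.
Col4a1: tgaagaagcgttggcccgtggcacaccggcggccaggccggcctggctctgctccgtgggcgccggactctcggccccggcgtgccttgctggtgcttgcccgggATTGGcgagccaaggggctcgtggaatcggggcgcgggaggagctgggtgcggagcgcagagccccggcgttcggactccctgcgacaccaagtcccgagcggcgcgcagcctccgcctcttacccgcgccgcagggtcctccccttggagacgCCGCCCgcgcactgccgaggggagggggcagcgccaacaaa
Col4a2: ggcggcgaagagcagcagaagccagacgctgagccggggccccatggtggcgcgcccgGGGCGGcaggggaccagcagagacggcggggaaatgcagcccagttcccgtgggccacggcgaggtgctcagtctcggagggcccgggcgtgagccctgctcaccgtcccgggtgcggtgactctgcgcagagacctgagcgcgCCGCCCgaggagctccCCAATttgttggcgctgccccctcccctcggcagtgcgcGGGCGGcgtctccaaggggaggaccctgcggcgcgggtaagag
Col4a1 had 2.44 and 2.50 on Dex+E2 1 and 2, 2.68 and 2.69 on Dex 1 and 2, 2.69 and 2.57 on E2 1 and 2 and 2.55 and 2.52 on Vehicle 1 and 2. On arrays 3 and 4 it had 2.23 and 2.60 with Dex+E2, 2.31 and 2.44 with Dex, 2.24 and 2.32 with E2 and 2.20 and 2.30 with vehicle, so that Dex+E2 4 alone reached into the range of arrays 1 and 2, together with Dex 4 at its edge. The Col4a1 window held 1 GC box and 1 CCAAT box, and that of Col4a2 held 3 GC boxes and 1 CCAAT box. The GC box of Col4a1 and 1 of those of Col4a2 are the same bases, read from opposite strands in the stretch that the windows share.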

How the data were processed

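The members and the wider lists were chosen with earlier results of these data known. The arrays were read with Agilent Feature Extraction 12 (named in the submitters' processing notes). The processed signal that the authors deposited is, per the file headers, an intensity, linear and with background subtracted. The series also has a deposited log2 table whose columns share one set of sorted values. It served as an alternative; its method was not stated in these sources.

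Control and outlier spots were left out, spots of a probe were averaged, and log2 was taken relative to the 75th percentile of each array. Accessions were named through RefSeq (GRCm38.p6), 28223 of 41174 probes. An accession without a symbol was kept as a gene of its own, both in the count of genes with a probe and for the fit. A probe was kept when well above background on all 4 arrays of a label. All 17771 genes were fitted with limma 3.58.1 in R 4.3.3 (treatment only, 16 arrays, eBayes with trend), with Benjamini-Hochberg adjustment and calls at 0.05. The design text states independent experiments without saying which array came from which, and the number of arrays limits the precision. Same-numbered arrays of different labels had deviations that correlated at r = -0.156 to 0.463, over 0.1 in 13 of 24 pairs. This does not settle whether numbers are pairs. The main fit did not take them as pairs, and a replicate block was run as an alternative. The fit was tested on simulated data.

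Per-array values are given for matrix genes that separated the Per1 groups and for genes called in any setting. They are also given for the widest-ranging gene of each role among all genes with a probe. For the 2 genes with the smallest p per comparison they are given on the arrays of the labels compared. Of the widest-ranging genes, dim ones other than Tnc are given by their highest array and the bound of the others. Others were named after their values were seen. Alternatives were background correction (normexp), quantile normalization, the deposited table, probe filters, the mean over probes, slide and replicate blocks, no variance trend, 2 labels alone, arrays left out, and leaving out the 4 arrays with Per1 against the label. The files used here hold no mean spot signal, so normexp was run on the median signal with an offset of 50. After its result was seen, a version with capped local background was added beside it.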

Additional observations from a re-analysis of the deposited data

Results flagged for a closer look

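Of 156 groups of 4 arrays (39 matrix genes in 4 labels), 7 held an array whose gap to the nearest other one exceeded the critical value of Dixon's test, as a share of the group's range. Chance flags about 1 in 20 groups, which is close to the number seen. Lamb1 on Dex+E2 3 was at -0.56, against -1.07 to -1.04 on the other Dex+E2 arrays, and that array was Per1-low. Lama4 on Dex 3 was at -3.54, against -1.70 to -1.38 on the other Dex arrays. The other 2 Lama4 probes had -2.08 on Dex 3, the highest of its 16 arrays, and -3.05, inside a range of -3.66 to -2.62. Thbs1 on Dex 3 was at -2.06, against -2.46 to -2.41, and Bgn on Dex 3 at -3.98, against -3.71 to -3.66. Hspg2 on E2 1 was at 5.21, against 4.97 to 5.01 on the other E2 arrays. The remaining 2 were dim probes on Vehicle 2: Tnc at -2.40, against -8.54 to -8.34, and Lox at -6.07, against -8.68 to -8.30 on the other vehicle arrays. No cause was tested.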

How the results depend on the processing

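The counts of called genes and of called matrix genes were 0 in the 6 comparisons as reported. They stayed 0 without any single array, with medians of the 28 matrix genes from -0.11 to 0.03 (Dex against vehicle), -0.03 to 0.07 (E2 against vehicle), -0.08 to 0.04 (Dex+E2 against vehicle), -0.04 to 0.04 (Dex+E2 against Dex), -0.12 to -0.01 (Dex+E2 against E2) and -0.09 to 0.07 (interaction). With the replicate block, which does not rest on a known pairing, 0 genes were called and the medians were -0.04, 0.02, -0.05, 0.01, -0.04 and -0.01 in the same order. More genes had an unadjusted limma p under 0.05 in each comparison, with 2550 for Dex against vehicle beside 1933 as reported.

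Calls appeared in 3 settings. Without the 4 arrays whose Per1 level went against the label, 432, 460 and 343 genes and 1 matrix gene each (Lamb1) were called for Dex against vehicle, Dex+E2 against vehicle and Dex+E2 against E2. Within the slide that Dex and vehicle shared, with 2 arrays of each, 45 genes and 0 matrix genes were called. Without a trend in the variance prior 1 gene was called for E2 against vehicle. Slide as a fixed block moved the median of the matrix genes to 0.23 (E2 against vehicle), 0.23 (Dex+E2 against vehicle) and 0.21 (Dex+E2 against Dex). With slide as a random block these 3 medians were 0.04, 0.05 and 0.04. The shared slide moved the median to 0.32 (E2 against vehicle) and 0.20 (Dex+E2 against Dex).

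Background correction by normexp was planned and was run in 2 versions. As planned, it gave a median of -0.36 for E2 against vehicle with 0 genes called, though 11687 genes had an unadjusted p under 0.05, left 0 matrix genes separate by Per1, and left 1 (Col6a1) separate by array number, none of the 4 reported. In it, spots with a local background far above their signal (lowest difference -65511.5 on E2 1) went with a corrected signal whose lowest 5% ended at 912 on E2 1 and at 5.95 on Dex 4. A second version, chosen after seeing the data, set local backgrounds over 2 times the array's median to that median. It called 0 genes, gave a median of 0.02 for E2 against vehicle, and left Lamb1 separate by Per1 and 3 genes by array number. Neither version replaces the reported setting, and the planned one is the setting under which Lamb1 was no longer separate.

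By Per1, Lamb1 was the separate matrix gene under the quantile, deposited-table and filter settings and without Vehicle 1, and the mean over probes gave 2, Lamb1 and Mmp14. By array number, the 4 genes became 2 with quantile normalization (Col1a1 and Loxl2), 2 with the deposited table (the same genes) and 2 with the mean over probes (Col4a2 and Sparc). That division and its settings were added after seeing the data.

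Of the matrix genes named by label, none but Lamb1 was called in any setting. Over the settings the differences ran from 0.15 (capped normexp) to 1.33 (planned normexp) for Bgn and from 0.06 to 0.67 for Eln, both E2 against vehicle, from -0.68 to -0.14 for the Bgn interaction, from -0.60 to -0.10 for Timp1 with Dex, from -0.51 to 0.51 for Timp1 and from -0.63 to -0.11 for Hspg2 with Dex+E2 against vehicle, and from -0.62 to -0.12 for Col1a2 with Dex+E2 against E2.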
